A study of Mus musculus with 2 samples.

Results

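The miR-15/16 family was followed in the embryonic mouse kidney through 6 of the 1973 microRNA (miRNA) genes counted in the deposited files. Its members were taken by name: Mir15a, Mir15b, Mir16-1, Mir16-2, Mir195a and Mir497b. For Mir497b the reads on the strand opposite to the gene were used, because they stand for Mir497, which lies there and has no line of its own in the files. Small RNA below 30 nt was sequenced from kidneys of B6NCrl embryos at 15.5 days (E15.5). All samples belong to 1 group of 2 libraries that the labels call biological replicates. Replicate 1 pooled kidneys of 78 embryos and replicate 2 those of 62 embryos, with males and females mixed, so differences between single animals cannot be seen. No treatment, mutation, second tissue or second age was included, and the only comparison is between the pools.

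MiRNAs of this family are cut from hairpin precursors and guide Argonaute proteins to messenger RNAs that carry a match to the seed, bases 2 to 8 of the miRNA. The family is known as a brake on cell division: cyclins D1 and E, Cdk6, Chek1 and Wee1 are among its described targets, as is the survival factor Bcl2. Mir15a and Mir16-1 lie in Dleu2, in a region often lost in chronic lymphocytic leukaemia, and the miR-195 branch is known for the exit of heart muscle cells from the cell cycle after birth. Cell division itself was not measured here.

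The mature miRNAs are shown first, since their sequences decide which reads can be given to a gene. They are the 5p arms, written 5′ to 3′ from the RefSeq table of GRCm38.p6 (the assembly of mm10), with the seed in capitals.
miR-15a-5p: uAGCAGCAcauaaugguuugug
miR-15b-5p: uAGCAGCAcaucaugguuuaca
miR-16-5p: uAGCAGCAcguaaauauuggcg
miR-195a-5p: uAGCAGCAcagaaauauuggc
miR-497a-5p: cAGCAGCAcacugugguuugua
All 5 sequences carry the seed AGCAGCA, whose complement in a target RNA reads UGCUGCU. Apart from base 1, where miR-497a-5p has another letter, they are identical up to base 9. With positions counted from 1 at the 5′ end, miR-16-5p and miR-195a-5p differ over their 21 shared positions by G10A and U11G alone, where the first letter is that of miR-16-5p. miR-15a-5p and miR-15b-5p share 18 of 22 bases. The least alike pair, miR-16-5p and miR-497a-5p, share 11 of 22.

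The 3p arms of the same hairpins have 6 different seeds, and none of these is the family seed. Reads of the arms are added together in each gene's count, so a gene's level is not the level of its 5p arm. Of the members, Mir16-1 and Mir16-2 are the ones that make the same mature miRNA, miR-16-5p. Their whole hairpins are shown, as DNA letters read into RNA from GENCODE M21, with the longest stretch they share in capitals.
Mir16-1: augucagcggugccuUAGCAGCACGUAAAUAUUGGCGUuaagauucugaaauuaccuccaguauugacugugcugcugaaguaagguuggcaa
Mir16-2: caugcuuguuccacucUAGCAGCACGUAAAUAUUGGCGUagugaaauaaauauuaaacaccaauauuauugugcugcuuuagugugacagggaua
The shared stretch is 23 nt long and holds all 22 bases of miR-16-5p, so a full-length read of miR-16-5p matches both genes. The authors put reads that match several loci into a line outside all genes. That line held 27.1% of reads for replicate 1 and 26.6% for replicate 2, with no record of the miRNAs they came from. The counts of Mir16-1 and Mir16-2 are therefore those of reads that can be placed, such as their different 3p arms or reads that run past the shared stretch, and they are no measure of miR-16-5p. For Mir15a, Mir15b, Mir195a and Mir497 the longest stretch shared with another hairpin, among the 2202 annotated miRNA hairpins, was 13, 12, 16 and 12 nt, below the length of a mature miRNA.

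The last member needs both strands. Mir497 (chromosome 11, 70234717 to 70234800, plus strand) lies whole within Mir497b (70234692 to 70234816, minus strand), and their annotated products are complementary over 17 nt, shown in capitals.
miR-497a-3p: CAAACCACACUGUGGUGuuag
miR-497b: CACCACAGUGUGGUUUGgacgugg
On its own strand Mir497b had 0 reads in replicate 1 and 1 read in replicate 2. On the opposite strand, that of Mir497, it had 3941 and 3113 reads. The signal at this place thus lay on the strand of Mir497, and these reads are called Mir497 from here on. The other 5 members had 1 read on their opposite strands over both libraries, at Mir195a.

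The genes form 3 pairs of neighbours. On chromosome 14, on the minus strand of mm10, Mir15a (ENSMUSG00000093007.1, 61632027 to 61632110) is followed after 54 nt by Mir16-1 (ENSMUSG00000092995.1, 61631880 to 61631972). Mir15a is intronic to the long noncoding RNA gene Dleu2, and Mir16-1 overlaps an annotated exon of it. On chromosome 3, on the plus strand, Mir15b (ENSMUSG00000065580.1, 69009772 to 69009835) and Mir16-2 (ENSMUSG00000065606.1, 69009902 to 69009996) lie 66 nt apart within introns of Smc4, which encodes a condensin subunit that packs chromosomes for mitosis. On chromosome 11, Mir497 and Mir195a (ENSMUSG00000065411.2, 70235042 to 70235135, plus strand) lie 241 nt apart, outside any other annotated gene, with Bcl6b 4894 nt before Mir497b and 0610010K14Rik 71 nt after Mir195a.

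**Figure D1:**
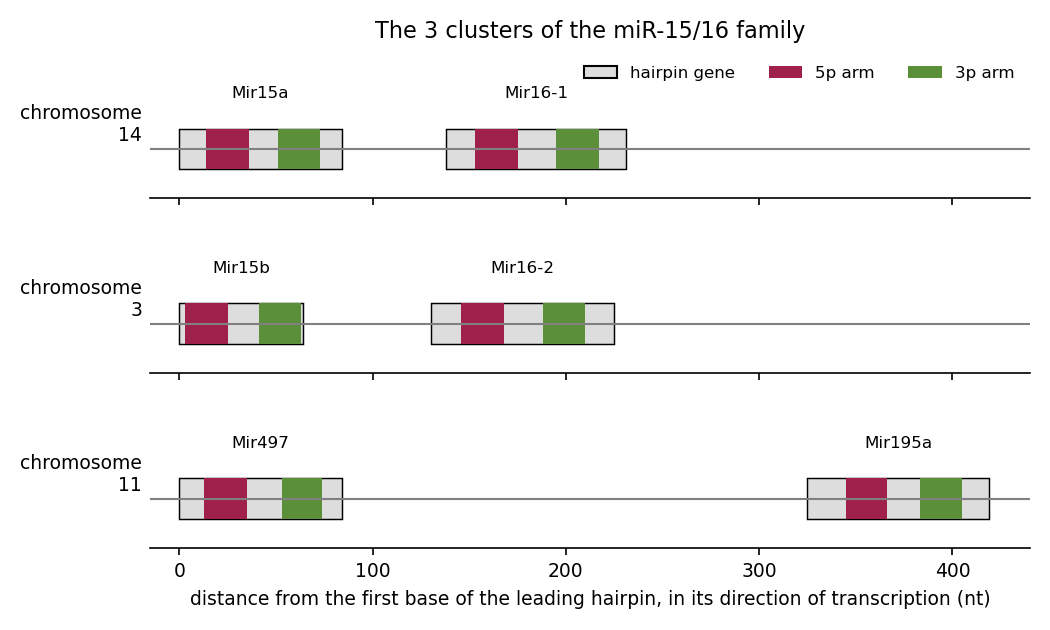
Map of the 3 gene pairs, drawn to scale as the distance in nt from the first base of the leading hairpin in its direction of transcription; grey boxes are hairpin genes, red boxes 5p arms and green boxes 3p arms. The hairpins of chromosomes 14 and 3 lie 54 and 66 nt apart and those of chromosome 11 lie 241 nt apart.

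Set against the own-strand gene reads, the reads of the 6 genes came to 0.661% in replicate 1 (95% exact binomial interval 0.655 to 0.667) and 0.644% in replicate 2 (0.637 to 0.650), or 0.652% ± 0.0123 (SD, n = 2). The Mir497 reads are not part of the own-strand total, and without them the shares were 0.608% and 0.590%. The totals behind these shares were 7434182 and 5863293 reads, and the family had 49126 and 37728 reads. Each member was well above the limit that a count of 0 allows (3 reads, or 0.404 and 0.512 counts per 1000000 own-strand gene reads, CPM). Intervals and limits cover counting error only. Since miR-16-5p reads match both of its genes, the family's share can be too low.

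Mir15a was the highest member in both libraries. It had 19751 reads in replicate 1 and 16411 in replicate 2, which are 2657 and 2799 CPM, or 2728 ± 100.5 CPM (SD, n = 2), and stood at rank 53 of all genes by mean. Mir16-1, its neighbour in Dleu2, followed with 12365 and 8732 reads, at 1663 and 1489 CPM (1576 ± 123, SD, n = 2). Both genes of the Dleu2 pair were thus above every other member in either library.

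The pair in Smc4 stood lower. Mir15b had 6910 and 5277 reads, at 929 and 900.0 CPM (915 ± 20.9, SD, n = 2). Mir16-2, the lowest member, had 2537 and 1974 reads, at 341 and 337 CPM (339 ± 3.25, SD, n = 2). Mir15a exceeded Mir16-2 by 7.79 times in replicate 1 and by 8.31 times in replicate 2.

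The pair on chromosome 11 stood between these. Mir497 gave 530.1 and 531 CPM (530.5 ± 0.574, SD, n = 2). This closeness holds for plain totals, since with TMM factors its levels were 554 and 508 CPM, with an SD of 32.7. Mir195a had 3622 and 2221 reads, at 487 and 379 CPM (433 ± 76.7, SD, n = 2), which is the widest relative spread in the family, at 17.7% of the mean. By mean level the members were at ranks 53 to 123 of all genes, and 36.9% of genes in the files had any own-strand read.

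The order by CPM was Mir15a, Mir16-1, Mir15b, Mir497, Mir195a and Mir16-2 in both libraries, and with plain totals no neighbours in this order overlapped in their ranges over the libraries. With TMM factors Mir497 (508 to 554 CPM) and Mir195a (362 to 509 CPM) overlapped in their ranges. Within each library Mir497 stayed above Mir195a, since a library's factor leaves the ratios within it unchanged. With DESeq2 size factors Mir195a (358 to 515 CPM) and Mir16-2 (318.5 to 361 CPM) overlapped as well. The closest were Mir195a over Mir16-2, by 1.43 and 1.13 times, and Mir497 over Mir195a, by 1.09 and 1.40 times. The members were measured in the same 2 libraries, which are too few for a test of their order, so no test was made. Divided by hairpin length, the mean levels were 32.5 CPM per nt for Mir15a, 16.95 for Mir16-1, 14.3 for Mir15b, 6.32 for Mir497, 4.61 for Mir195a and 3.57 for Mir16-2. The order per nt was the same with the 84 nt of Mir497, but with the 125 nt of Mir497b the value for Mir497 was 4.24, below Mir195a. Mir16-1 and Mir16-2 have reads set apart, and the places of both in this order hold for the counted reads only.

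**Figure D2:**
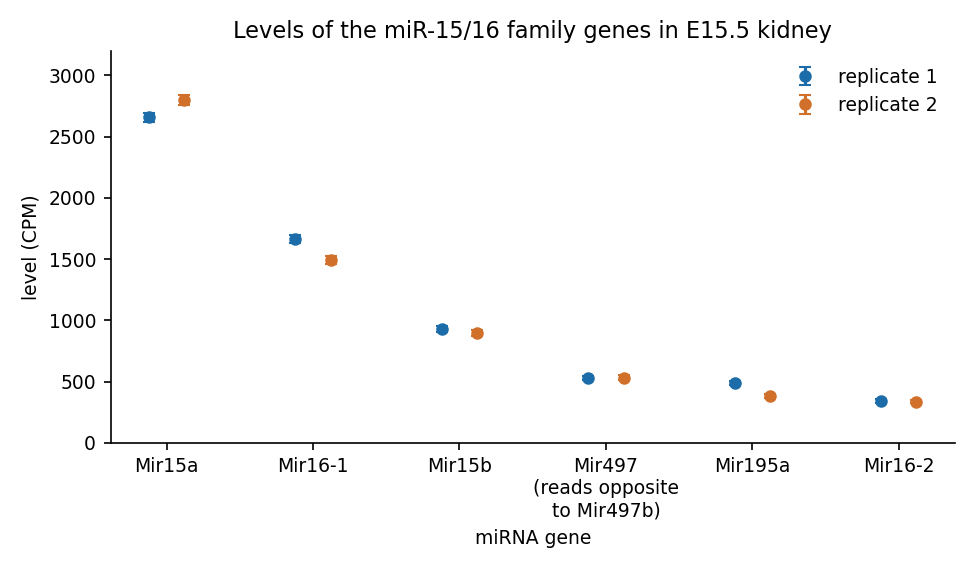
Level of each family gene in CPM, on an axis from 0; points are the libraries and bars are 95% exact binomial intervals for counting error. Mir15a lies near 2657 and 2799 CPM, above the other 5 genes, and Mir195a and Mir16-1 are lower in replicate 2 by more than their intervals.

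By pair, the Dleu2 genes held 66.0% ± 0.897 of the family's reads, the Smc4 genes 19.2% ± 0.00777 and the chromosome 11 genes 14.8% ± 0.889 (SD, n = 2 each). In replicate 1 these shares were 65.4%, 19.2% and 15.4%. In replicate 2 they were 66.6%, 19.2% and 14.1%. Among the counted reads, the order of the pairs was thus the same in both pools. The Dleu2 and Smc4 pairs make a mature miRNA in common, and its full-length reads match both pairs and were set apart. How those reads would divide between these pairs is not known. The chromosome 11 pair has no such miRNA, so its share of the family can be too high. These shares, their SDs and the order of the pairs therefore hold for the counted reads only.

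Hairpins of a pair can be cut from shared transcripts, and the share of a pair's reads does not depend on how libraries are scaled. Within the Smc4 pair, Mir15b took 73.1% of reads in replicate 1 (95% exact binomial interval 72.2 to 74.0) and 72.8% in replicate 2 (71.7 to 73.8). These intervals overlapped. Within the Dleu2 pair, Mir15a took 61.5% (60.96 to 62.0) and 65.3% (64.7 to 65.9), and the intervals did not overlap. Within the chromosome 11 pair, Mir497 took 52.1% (50.98 to 53.2) and 58.4% (57.0 to 59.7), again without overlap. Balance within a pair therefore differed between the pools beyond counting error in the Dleu2 and chromosome 11 pairs, with 1 library for each value. For the Dleu2 and Smc4 pairs these are shares of the reads that could be placed, without the miR-16-5p reads that match both Mir16 genes. In both pairs that differed, the gene named first took more in replicate 2, and Mir16-1 and Mir195a took less.

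**Figure D3:**
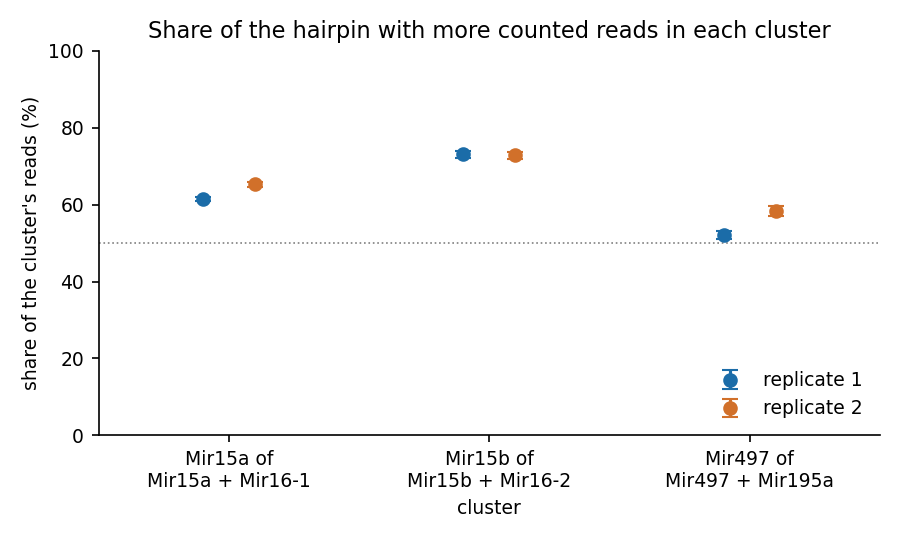
Percent of a pair's reads that came from the hairpin with more counted reads, on an axis from 0 to 100; points are the libraries, bars are 95% exact binomial intervals and the dotted line marks equal shares. Mir15b stays near 73% in both libraries, while the shares of Mir15a and Mir497 are higher in replicate 2.

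Between the pools the summed level of the family had a log2 ratio of replicate 2 over replicate 1 of -0.04 (95% exact binomial interval -0.06 to -0.02). This value and its interval hold for plain totals. With TMM factors the members' median log2 ratio was -0.161, against -0.033 with plain totals, and the median of all rows tested was 0.017, against 0.140. For each row of counts, replicate 2 was set against replicate 1 by an exact binomial test, two-sided and scaled to the totals. Benjamini-Hochberg adjustment ran over the 379 rows whose mean count reached 10. All 6 members passed that filter, and 3 of 6 had an adjusted p of at most 0.05. Of all rows tested 55.7% did, so the members' count is near the background. The test covers counting error and compares these libraries only. None of the 6 members passed with a fold of at least 2, which 5.01% of all rows did.

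Mir195a had the largest difference, a log2 ratio of replicate 2 over replicate 1 of -0.36 (95% exact binomial interval -0.44 to -0.29, adjusted p of the exact binomial test 2.24e-20). Mir16-1 followed at -0.16 (-0.20 to -0.12, exact adjusted p 9.49e-15). Both were called lower in replicate 2, as were 15.6% of all rows tested. Mir15a was called higher in replicate 2 at 0.075 (0.045 to 0.105, exact adjusted p 2.34e-06), as were 40.1% of all rows. With edgeR's TMM factors Mir15a stood at -0.053, so its direction rests on the scaling. All 6 members were then called lower in replicate 2, against 2 lower and 1 higher with plain totals. TMM factors called 58.3% of all rows in either direction. The share of all rows called lower was not counted for that run, so the 6 calls have no matching background.

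The log2 ratios of Mir15b, Mir16-2 and Mir497 were -0.046 (-0.098 to 0.005), -0.019 (-0.105 to 0.066) and 0.002 (-0.066 to 0.070), with exact adjusted p of 0.122, 0.753 and 0.968. These intervals cover counting error under plain totals only. With TMM factors the log2 ratios were -0.174, -0.147 and -0.126, outside those bounds and called lower. The median of the members was -0.03, beside 0.14 for all 379 rows, and 6 of 6 members lay below that median. Among the 265 rows whose mean count reached 100, the absolute ratio of Mir497 exceeded that of 1.13% of rows, and that of Mir195a exceeded 67.9%. These places hold for plain totals.

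**Figure D4:**
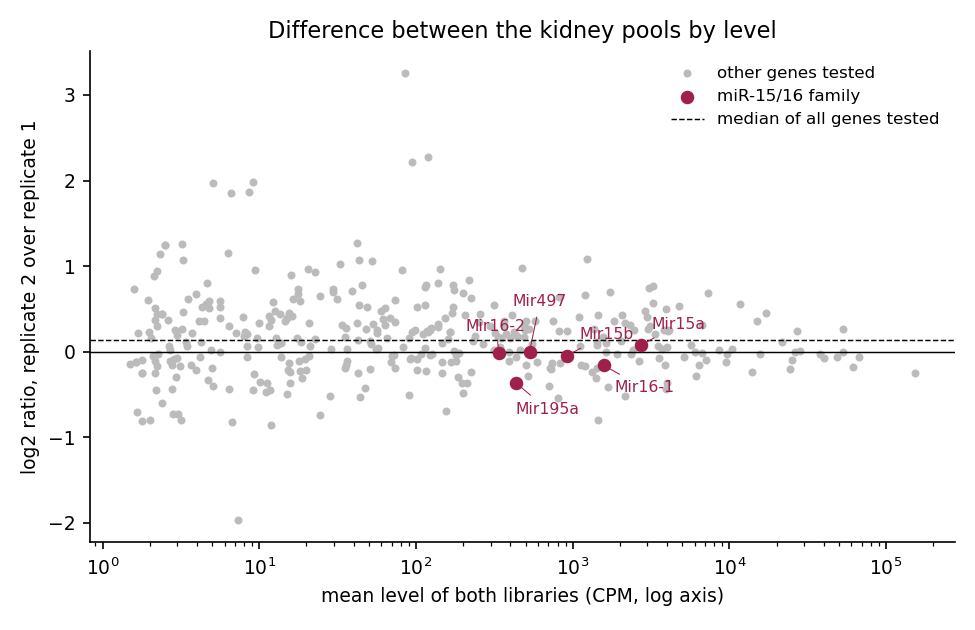
Log2 ratio of replicate 2 over replicate 1 for each of the 379 rows tested, against mean level in CPM on a log axis; family genes are in red, the solid line marks 0 and the dashed line the median of all rows, 0.14. The 6 family genes lie between -0.36 and 0.075, all below the dashed line.

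The tissue was checked by marker miRNAs. The 11 markers of kidney epithelium all had reads, and summed to 3.48% and 3.56% of own-strand gene reads. Mir126a, the endothelial miRNA, stood at 4.97% and 4.78%, and the smooth muscle list (Mir143 and Mir145a) at 2.495% and 2.94%. Blood markers summed to 0.0959% and 0.117%, and the liver miRNA Mir122 to 0.0319% and 0.0628%. In the blood list Mir142b had 0 own-strand reads, and its hairpin shares at most 13 nt with other miRNA genes. Reads on its opposite strand were not part of this sum. Its 0 therefore does not show that no miRNA was made at this place, and the blood sum can be too low. Neural markers summed to 0.0567% and 0.0721%, with 4 of 8 genes at 0, among them Mir124a-1, Mir124a-2 and Mir124a-3. The hairpins of these 4 genes share stretches of 32 to 33 nt with other miRNA genes, so their reads can lie among those set apart, and a 0 does not show that the miRNA was absent.

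Striated muscle markers moved in the same direction as Mir195a. They summed to 0.102% in replicate 1 and 0.0698% in replicate 2, and 3 of the 4 genes with enough counts passed the test, all lower in replicate 2. Mir206 led them, and Mir1a-1, Mir133a-1 and Mir133a-2 were at 0, but their hairpins share 28 to 31 nt with other miRNA genes, and the same limit applies. The kidney epithelium list had 6 of 11 genes called lower and 2 higher in replicate 2. Mir126a was called lower, while 3 of 4 neural, 2 of 5 blood, 1 of 2 smooth muscle and 1 of 1 liver genes were called higher. Over all rows 15.6% were called lower and 40.1% higher. The part of any of these lists in the lower Mir195a level was not tested. In pooled tissue, fewer cells of a type and less RNA per cell cannot be told apart.

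Other genes carry the same seed. The RefSeq table holds 11 genes with a mature miRNA of seed AGCAGCA, the 6 of the family and Mir322, Mir195b, Mir6342, Mir6353 and Mir6419. Mir322, on chromosome X, is the mouse counterpart of human miR-424, and its 5p arm is shown beside miR-503-5p and miR-107-3p, which belong to a wider group of miRNAs with related 5′ ends, with bases 2 to 8 in capitals.
miR-322-5p: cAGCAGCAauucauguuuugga
miR-503-5p: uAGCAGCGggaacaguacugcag
miR-107-3p: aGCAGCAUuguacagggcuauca
miR-322-5p differs from miR-15a-5p at 7 of 22 positions, and miR-503-5p leaves the family seed at its last base. In miR-107-3p the same letters begin a base earlier, so its bases 2 to 8 are another seed.

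Mir322 had 304871 and 229428 reads, at 41009 and 39130 CPM (40069 ± 1329, SD, n = 2). That is 6.21 times the sum of the 6 family genes in replicate 1 and 6.08 times in replicate 2. Of all reads in genes with the seed, the family held 13.9% and 14.1%, and Mir322 held the rest. Both arms are added in these counts, and the 3p arms, miR-322-3p among them, have other seeds. These are therefore shares of gene counts, not of miRNAs with the seed. Mir195b, Mir6342, Mir6353 and Mir6419 had 0 reads in both libraries. Among the counted reads, then, genes with this seed summed to 4.66% ± 0.145 of the total (SD, n = 2), most of it from chromosome X. Reads of miR-16-5p that match both of its genes would add to the family's side and were not countable here.

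Of the related genes, Mir107, in the range of the family, had 1185 and 1061 CPM, and Mir503, beside Mir322, had 842 and 997 CPM. Mir503 was the measured gene nearest to Mir15b in level. Mir103-1 and Mir103-2, which both hold the whole of miR-103-3p, had 2.96 and 2.73 CPM and 35.0 and 51.5 CPM. Full-length reads of miR-103-3p match both genes and can lie among those set apart, so these levels are no measure of miR-103-3p. Mir107 shares a stretch of 24 nt with Mir103-2, so some of its reads can be set apart too. Mir1907 had 1 and 3 reads, at or below the limit for a count of 0.

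**Figure D5:**
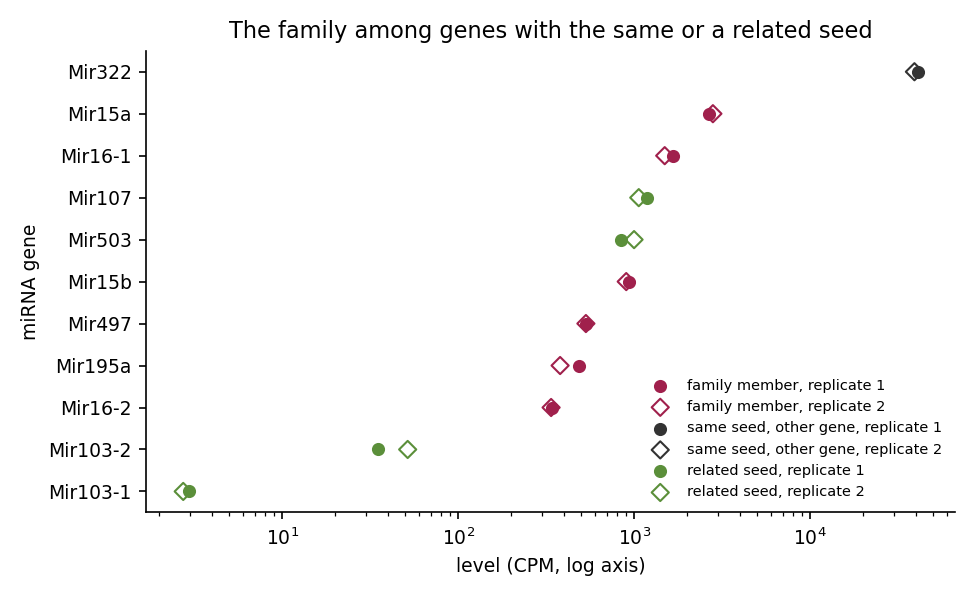
Levels in CPM, on a log axis, of the family and of the related genes with more than a few reads; filled circles are replicate 1 and open diamonds replicate 2, and colour separates family members, the other gene with the same seed and genes with a related seed. Mir322 lies near 40069 CPM, above Mir15a at 2728 CPM, and Mir103-1 is lowest.

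For each family gene the measured gene most like it in level was found by the distance in log2(CPM + 1) over the 2 libraries, among 373 genes. Mir497 lay 0.028 from Mir25 and Mir16-2 lay 0.039 from Mir106a, both relatives of the miR-17-92 cluster. Mir15a was nearest to Mirlet7f-2 (0.137), Mir16-1 to Mir27b (0.141), Mir15b to Mir503 (0.205) and Mir195a to Mir1193 (0.212). With 2 libraries this shows likeness of level only.

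Other miRNAs tied to the cell cycle gave a scale for the family. A list of miRNAs known to restrain proliferation (let-7, miR-26, miR-34 and miR-449 genes, 19 of 21 with a line in the files) summed to 16.3% ± 1.03, led by Mirlet7g at 5.30%, Mirlet7i at 5.29% and Mir26b at 2.64%. A list known to promote it (the miR-17-92 cluster with its paralogs and miR-221 and miR-222, 14 of 17 with a line) summed to 5.55% ± 0.11, led by Mir17 at 2.81%, Mir93 at 0.963% and Mir20a at 0.957% (SD, n = 2 each). Against these the 6 family genes held 0.652%. Both lists, like the family, hold numbered copies of a gene, whose shared reads can lie among those set apart. Each of these sums can therefore be too low, and the scale and the leading genes hold for the counted reads only. Of the restraining genes with enough counts, 9 of 17 were called higher and 1 lower in replicate 2, with a median log2 ratio of 0.25, beside 40.1% called higher, 15.6% called lower and a median of 0.14 over all rows tested. Of the promoting genes 2 of 14 were called higher and 5 lower, with a median of -0.02. No difference between these lists and the family was tested.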

How the data were processed

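The authors deposited raw read counts per miRNA gene for 2 libraries of E15.5 kidney, as totals and split into reads on the strand of the gene and on the other. Per the deposited notes they come from alignments to mm10 with the GENCODE M4 annotation. Neither aligner nor counter is given in the sources used here. Lines for unmapped, multimapping and unannotated reads (17.7%, 27.1% and 2.57% in replicate 1; 19.7%, 26.6% and 4.05% in replicate 2) were kept out of library totals.

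CPM is the count over the sum of own-strand counts (7434182 and 5863293), times 1000000. Gene names and positions came from GENCODE M21 and sequences from RefSeq (GRCm38.p6) and GENCODE. All 6 members matched. The named genes are the members, the nearest gene to each in level, the other genes with the family seed or a related one (Mir322, Mir503, Mir103, Mir107 and others) and the 3 highest of each cell-cycle list. Marker genes of cell types are named from their lists for the tissue check, and Mir10a as the most abundant gene. The members and lists were chosen with earlier results of these data known. The exact binomial test was tried on simulated counts that held counting error alone, for calls with a fold of at least 2. That run did not cover variation between pools or the call without a fold. Alternatives were TMM factors, DESeq2 size factors, a total without Mir10a, both strands, other filters, folds and pseudocounts, each replicate left out, gene length and miR-16 copies summed. Tools were Python 3.11.15, scipy 1.17.1, pandas 2.3.3, numpy 2.4.6, matplotlib 3.10.9, R 4.3.3, edgeR 4.0.16 and DESeq2 1.42.0; the last 2 gave scaling factors only.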

Additional observations from a re-analysis of the deposited data

How the results depend on the processing

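With 1 group no contrast between groups could be fitted. The family share, 0.652%, was 0.644% to 0.661% when either replicate was left out, 0.638% with both strands counted, 0.771% with Mir10a out of the total and 0.599% without the Mir497 reads. The 3 members called between the libraries became 6 with TMM factors and 6 with DESeq2 size factors, which also called 58.3% and 59.1% of all rows. The log2 ratio of Mir15a turned to -0.053 with TMM and -0.085 with DESeq2 factors, and that of Mir497 to -0.126, -0.158 and, without Mir10a, -0.043. Of the 36 log2 ratios under alternatives 25 kept direction and call, 7 gained a call, 1 lost it and 5 reversed, 2 of which are among the 7. None of the members passed the 2-fold call in any alternative run. Over all rows that call gave 19 genes, against 31 with no count filter, 8 at a mean count of at least 100 and 60 at a fold of 1.5. A factor for a whole library cannot change the order of the members within it. In a check added after seeing the data, the ranges of 5 of 5 neighbours stayed apart with both strands counted and without Mir10a, 4 of 5 with TMM and 3 of 5 with DESeq2 factors. Of the 5 neighbouring pairs, 4 held their order per nt of the annotated lengths, where Mir497 fell below Mir195a. With the length of Mir497 itself, an alternative chosen after seeing the data, all 5 held, and with both miR-16 genes summed all 4 pairs left held. Leaving out a library leaves no test between libraries. No pairing between groups was possible because there is 1 group. Ratios and shares of members were taken within each library, in 2 libraries only.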
